A study of Caenorhabditis elegans with 2 samples.

Results

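The shared sub-threshold regions of the SNAI-1 ChIP-seq data are sites that fell short of the authors' reproducibility filter in the pooled data but were strong in both replicates. SNAI-1 (K02D7.2) belongs to the Snail family of zinc-finger transcription factors. The pooled list of candidate regions held 30000 regions, and the list that passed the filter, by the irreproducible discovery rate (IDR), held 495 peaks. The members were chosen by measured signal. They are the pooled regions of signal ranks 496 to 2000 that overlapped no IDR peak and that were met, by at least 1 bp, by a region ranked within the top 2000 of both replicate lists. Of the 1505 regions in that rank range, 37 overlapped an IDR peak, and 305 of the remaining 1468 (20.8%) met the rule in both replicates. The authors' deposited signal has no stated scale, so it serves here to rank and describe regions within a list, and replicates are compared by rank.

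Both libraries came from 1 group, strain OP698, with the genotype unc-119(tm4063) III and the integrated transgene wgIs698. The transgene makes SNAI-1 with a tag at its C-terminus, which one label field calls eGFP and another GFP-FLAG, and the protein was recovered with an antibody against GFP from chromatin sheared by sonication. The samples were 2 biological replicates of whole, mixed-sex late embryos, taken 5 hours after the culture was synchronized by bleaching. Both replicates carried the unc-119 allele and the transgene, and no untagged strain or second condition is part of the series. Signal from whole embryos does not tell cell types apart. The files hold regions without read counts, so the depth is unknown.

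Snail proteins are repressors that bind the E-box CAGGTG and are best known for controlling cell fate, cell migration and cell adhesion. Genes for transfer RNA are transcribed by RNA polymerase III from promoter elements inside the gene, the A box and the B box. Small nucleolar RNAs (snoRNAs) guide the chemical modification of ribosomal RNA. IDR is a procedure that uses the consistency of ranks between replicates to set how many regions of a list are kept.

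The windows below show the strongest shared regions of each kind of place described later, from the chromosomes whose sequence is shown here, so that the sequence at the summits can be read beside the counts. Stronger regions at F56F4.t2 and T28B8.11 are described without sequence. Each is the 100 bp around the pooled summit on ce11 (WBcel235), read 5′ to 3′ from the RefSeq sequence of that assembly. Capitals mark the E-box pattern CANNTG, the B-box pattern GTTCNANNC and the hexamer TTGCCG, on either strand. In 1 window an E-box and a TTGCCG overlap. Among all 30000 pooled windows, 29% held CANNTG, 3.64% the B-box pattern and 7.82% TTGCCG. The hexamer TTGCCG was chosen for marking after its frequency was seen. The tRNA windows are read on the strand of the gene: a proline tRNA gene, H06A10.t1 (chrX:13511940-13512039, minus strand), a lysine tRNA gene, W10G11.t1 (chrII:3567813-3567912, minus), an alanine tRNA gene, C11E4.t1 (chrX:9622794-9622893, minus), and a glutamate tRNA gene, Y55F3BR.t1 (chrIV:842768-842867, plus).
H06A10.t1: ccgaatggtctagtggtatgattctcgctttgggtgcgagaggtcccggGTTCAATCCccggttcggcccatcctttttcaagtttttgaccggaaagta
W10G11.t1: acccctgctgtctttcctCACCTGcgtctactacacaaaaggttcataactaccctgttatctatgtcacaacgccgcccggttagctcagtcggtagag
C11E4.t1: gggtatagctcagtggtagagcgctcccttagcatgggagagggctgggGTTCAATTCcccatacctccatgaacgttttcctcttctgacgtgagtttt
Y55F3BR.t1: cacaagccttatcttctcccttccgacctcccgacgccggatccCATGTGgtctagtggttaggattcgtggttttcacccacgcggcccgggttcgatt

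Both windows with a marked B box had their summit 51 bp into the tRNA gene. The lysine window had its summit 27 bp in front of the gene, and its CACCTG is the Snail E-box CAGGTG on the other strand. The snoRNA windows lay at F07A11.15 (chrII:11620250-11620349, plus) and C36E8.11 (chrIII:4004349-4004448, plus), and the second held the E-boxes CAGCTG and CAAGTG.
F07A11.15: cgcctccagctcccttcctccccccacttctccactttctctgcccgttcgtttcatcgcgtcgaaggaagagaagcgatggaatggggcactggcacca
C36E8.11: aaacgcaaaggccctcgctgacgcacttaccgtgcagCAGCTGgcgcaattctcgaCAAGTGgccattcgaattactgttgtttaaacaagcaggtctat

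Promoter windows are read on the strand of the gene with the nearest start: T26A8.4 (chrIV:8432093-8432192, minus), Y55F3AR.2 (chrIV:1094334-1094433, plus), drap-1 (chrV:9731090-9731189, plus) and rpb-11 (chrII:14059881-14059980, plus). Each but T26A8.4 held at least 1 E-box, and none of these was CAGGTG.
T26A8.4: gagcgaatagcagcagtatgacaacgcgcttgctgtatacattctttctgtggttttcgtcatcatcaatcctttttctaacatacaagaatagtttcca
Y55F3AR.2: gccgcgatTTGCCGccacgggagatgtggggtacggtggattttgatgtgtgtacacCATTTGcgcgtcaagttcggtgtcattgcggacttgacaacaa
drap-1: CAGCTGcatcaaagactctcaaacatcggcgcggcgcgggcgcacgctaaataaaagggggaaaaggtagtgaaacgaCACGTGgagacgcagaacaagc
rpb-11: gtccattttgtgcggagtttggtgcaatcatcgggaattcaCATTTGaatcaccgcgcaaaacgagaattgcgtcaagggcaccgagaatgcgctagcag

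The strongest shared regions outside promoters and small RNA genes are read on the plus strand. They lay in an intron of egl-18 (chrIV:1904245-1904344), at a place outside protein-coding genes (chrIII:12988759-12988858), in an intron of rad-54.B (chrIV:16950834-16950933) and at another place outside genes (chrIII:11813061-11813160). Both chromosome III windows held copies of TTGCCG, and the first held 5.
egl-18 intron: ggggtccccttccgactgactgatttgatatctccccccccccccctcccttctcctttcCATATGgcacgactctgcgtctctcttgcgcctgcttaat
chrIII:12988759: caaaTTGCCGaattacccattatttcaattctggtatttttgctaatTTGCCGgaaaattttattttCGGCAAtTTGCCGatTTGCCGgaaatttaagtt
rad-54.B intron: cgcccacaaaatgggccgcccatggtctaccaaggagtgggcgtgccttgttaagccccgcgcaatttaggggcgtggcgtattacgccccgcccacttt
chrIII:11813061: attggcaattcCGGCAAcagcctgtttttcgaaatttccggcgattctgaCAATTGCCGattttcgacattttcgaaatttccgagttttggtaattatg

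The signal of the shared regions is fixed by the rule and is given as a description. Their pooled signal ran from 80.2 to 114.7 with a median of 101.1, at ranks from 496 to 1829. The 495 IDR peaks were exactly the pooled regions of ranks 1 to 495, and they included 1 whose overlapping region ranked 14450 in replicate 1 and 1 with none in the replicate 2 list. The shared regions thus lay below a cut in pooled signal. The pooled region of rank 495, the weakest IDR peak, had a signal of 114.70 and that of rank 496 a signal of 114.67. At the lower limit, rank 2000 and the next region both had 78.34. Replicate values are those of the strongest overlapping region in that list, and a replicate region can overlap more than 1 pooled region. In replicate 1 this region had a signal from 47.11 to 87.14 (median 53.83), and the first region past rank 2000 in that list had 47.10. In replicate 2 the range was 41.51 to 75.07 (median 48.45), and rank 2000 and the next had 41.49 and 41.48. Most shared regions were thus below the strongest regions of both libraries. In replicate 1, 17 stood among the 495 strongest regions, in replicate 2 34 did, and 254 of the 305 (83.3%) did in neither.

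**Figure D1:**
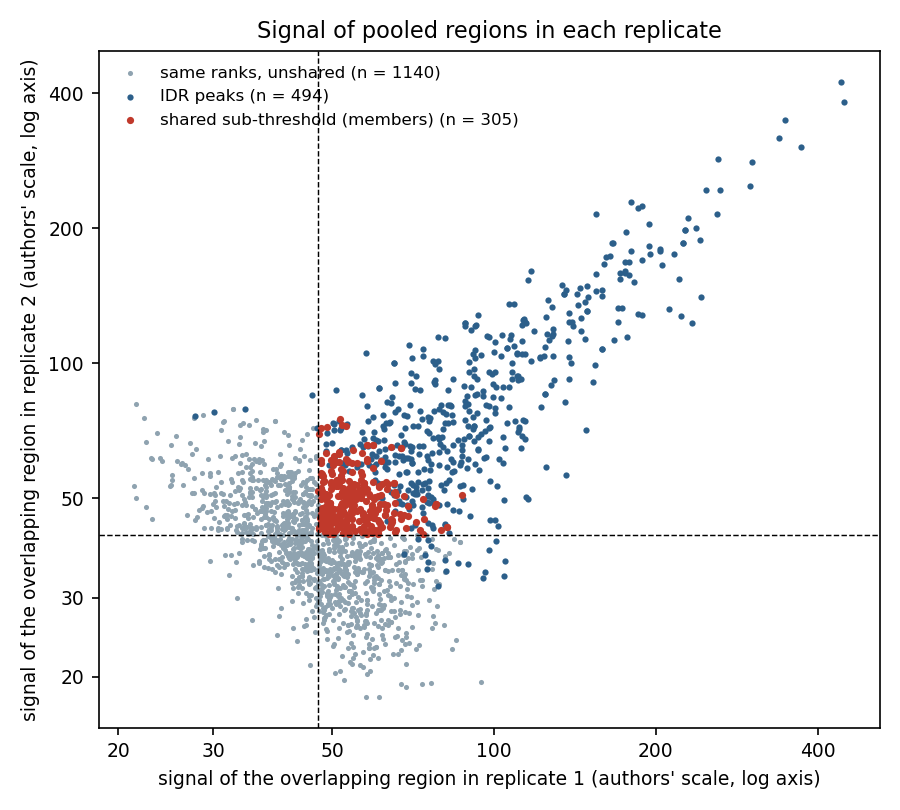
Signal of the overlapping region in replicate 1 (x axis) and replicate 2 (y axis) for pooled regions, both on the authors' scale with log axes, one point per region, with dashed lines at the signal of rank 2000 in each replicate (47.11 and 41.49). By the rule, the 305 shared regions (red) fill the corner above both lines, below most IDR peaks, and regions absent from a replicate's list are not drawn.

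The shared regions thinned out along the pooled ranking. They were 229 of the 492 candidates at ranks 496 to 1000 (46.5%), 64 of 484 at ranks 1001 to 1500 (13.2%) and 12 of 492 at ranks 1501 to 2000 (2.44%). Of the 1163 regions of the same ranks that missed the rule, called unshared below, 498 were among the 2000 strongest in replicate 1 alone, 441 in replicate 2 alone and 224 in neither. Across the 305 shared regions the replicate signals had a Spearman rho of -0.08, over points that share both libraries and were selected on both values. Merging overlapping members left 285 separate loci. The summits in the replicates lay a median of 78 bp apart, and 186 pairs (61%) were within 100 bp of each other. That share was 89.3% for the IDR peaks, 71.2% for those unshared regions that had a counterpart in both lists, and 42.9% for such regions beyond rank 2000. Overlap by 1 bp thus joined replicate regions whose summits were often more than 100 bp apart.

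Every share given below is a share of region summits with its exact (Clopper-Pearson) 95% binomial interval. Regions of 1 pair of libraries are not replicates, so the intervals cover counting error only and no p-value is attached to a share. The comparison sets are the 1163 unshared regions, the 27847 regions beyond rank 2000 that no IDR peak overlapped, and the 495 IDR peaks.

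Transfer RNA genes were the small RNA genes met most often. Summits that lay in a tRNA gene or at most 100 bp away numbered 22 among the shared regions (7.21%, interval 4.58 to 10.7%), against 3.27% (2.32 to 4.46%) of the unshared regions and 0.445% (0.371 to 0.531%) of those beyond rank 2000. The IDR peaks had 26.1%, above the interval of the shared regions. The annotation holds 612 tRNA genes. IDR summits marked 130 of them, and 23 others (3.76%) had a shared region. The shared regions lay at genes for alanine and glutamate (4 genes each), glycine and lysine (3 each) and for 8 further amino acids. The other 8 standard amino acids had none. Gene numbers ran from 12 (tryptophan) to 55 (glycine) per standard amino acid, so these small counts do not show a preference among amino acids. By chromosome, 7 of the 276 tRNA genes on X and 16 of the 336 on the autosomes had a shared region and no IDR peak.

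The strongest of these was F56F4.t2, a lysine tRNA gene on chromosome I (region 6136428 to 6136883), with a pooled signal of 113.3, 50.2 in replicate 1 and 59.3 in replicate 2. H06A10.t1 followed with 111.8 pooled, 59.5 and 54.4, and W10G11.t1 with 111.7, 54.4 and 59.8. C11E4.t1 had 110.9 pooled, 51.6 in replicate 1 (rank 1282) and 75.1 in replicate 2 (rank 242), the widest gap in rank of the 5, while Y55F3BR.t1 had 110.3, 58.0 and 52.4. By rank within each list, 6 of the 22 tRNA regions stood higher in replicate 1 and the others in replicate 2. In 16 of 22 the summit lay inside the gene, in 2 upstream of it and in 4 downstream, at a median of 45.5 bp from the gene's 5′ end. The IDR peaks at tRNA genes had 88 of 129 summits inside the gene and a median of 32 bp. The B-box pattern stood within 50 bp of the summit in 13 of the 22 (59.1%), in 60.5% of the unshared and in 59.7% of the IDR regions at tRNA genes. Of the 22 windows, 10 consisted mostly of 24-mers found at more than 1 place in the genome. How reads were assigned among such repeated sequences is not given in the sources used here. Which copy carried the signal is therefore uncertain for those windows.

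Genes for snoRNAs had 5 shared regions (1.64%, 0.534 to 3.78%), against 0.344% of the unshared regions (0.0938 to 0.878%) and 9.29% of the IDR peaks (6.88 to 12.2%). T28B8.11 on chromosome I (8135720 to 8136175) had a pooled signal of 106.4, with 59.5 in replicate 1 and 58.3 in replicate 2. F07A11.15, at the promoter of din-1, had 102.5 pooled, 51.2 and 50.6. C36E8.11, at the promoter of tif-1A, had 98.4 pooled, 54.2 and 49.9. All 3 ranked higher in replicate 2, with C36E8.11 at rank 1034 in replicate 1 and 905 in replicate 2. Y71F9AM.7, at cogc-3, and R12E2.17, in an intron of the proteasome gene rpn-8, were weaker at 95.3 and 91.6 pooled. Of the 5 summits 2 lay upstream of the snoRNA gene, whereas 42 of 46 IDR summits at snoRNA genes did, at a median of -42 bp. The B-box pattern was in none of the 5 windows and in 21 of the 46 (45.7%) at the IDR peaks.

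Other small RNA genes were met rarely. The 1 shared region at a gene for a small nuclear RNA (snRNA), a component of the splicing machinery, lay 59 bp in front of F54D8.7 (chromosome IV, 4864566 to 4865021) with signals of 97 pooled, 48.7 in replicate 1 and 51.1 in replicate 2. It made up 0.328% of the shared regions (0.0083 to 1.81%), against 0.258% of the unshared and 0.0646% of those beyond rank 2000. MicroRNA genes had 3 (0.984%, 0.203 to 2.85%), against 0.258% of the unshared regions (0.0532 to 0.752%), 0.122% beyond rank 2000 (0.0846 to 0.171%) and 0.808% of the IDR peaks. These were at cel-mir-54 (108.3 pooled, 73.9 and 49.7), cel-mir-58a (101.1, 87.1 and 50.8) and cel-mir-90 (84.6, 52 and 48.4). At ranks 496 to 1000 alone, microRNA genes had 0.873% of the shared (0.106 to 3.12%) and 1.14% of the unshared regions (0.236 to 3.3%). The order was thus reversed in that rank range, with overlapping intervals. MicroRNAs repress messenger RNAs by pairing with them. The 87.1 at cel-mir-58a was the highest replicate 1 signal of any shared region, and its summits in the replicates lay 209 bp apart. That replicate 1 region also overlapped a candidate beyond rank 2000. No shared region lay at a piRNA gene (interval 0 to 1.2%), against 0.172% of the unshared regions, 0.934% of the regions beyond rank 2000 and 0.404% of the IDR peaks. The interval of the shared regions took in all of these shares. Genes annotated as ncRNA without a stated kind had 34 shared summits (11.1%, 7.84 to 15.2%), 9.29% of the unshared and 30.1% of the IDR summits. Of the 34, 11 were also at one of the small RNA genes above. Among the other 23, the strongest were at F40F9.14 and F40F9.15 in the promoter of drap-1, T22B2.9 and T22B2.12 (111.9 pooled, 61.6 and 50.8) and F09F3.17 (107.5, 52.4 and 57.6). The remaining classes had 1 shared region at a lincRNA gene (linc-118, 100.2 pooled), 1 at an antisense RNA gene (anr-5, which shares the region of F56F4.t2) and 3 at pseudogenes, the strongest at ZK1010.6 (114.6).

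Of the shared summits, 161 (52.8%, 47 to 58.5%) lay outside protein-coding genes, a class that overlaps the promoters. Taking a promoter as the 1000 bp before a transcript start and the 200 bp after it, 143 summits lay in one (46.9%, 41.2 to 52.7%), against 37.6% of the unshared regions (34.8 to 40.4%) and 30% of those beyond rank 2000 (29.4 to 30.5%). The IDR peaks had the same share, 46.9%. In 33 cases (10.8%, 7.57 to 14.9%) the summit lay in the promoters of 2 or more genes, as it did for 6.88% of the unshared regions and 15.8% of the IDR peaks. Leaving out those at small RNA genes, 132 promoter summits lay at a median of -240 bp from the nearest start, and 84.8% were upstream of it. The median was -207 bp for the IDR peaks, with 94.6% upstream, and -273 bp beyond rank 2000, with 79.1% upstream.

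**Figure D2:**
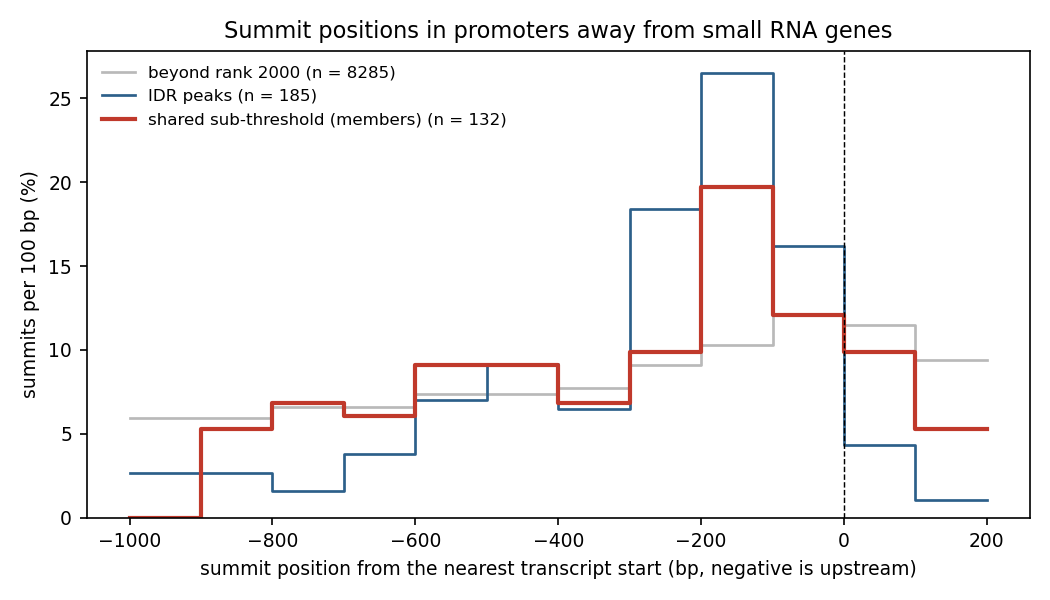
Position of the summit from the nearest transcript start (x axis, bp, negative upstream) and the share of promoter summits in each step of 100 bp (y axis, %), away from small RNA genes, for the shared regions (red, n = 132), the IDR peaks (blue, n = 185) and regions beyond rank 2000 (grey, n = 8285). The step from -200 to -100 bp held 19.7% of the shared summits, the largest step in red, and it lay between the blue and grey lines.

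Among the 20 strongest shared regions 9 lay in promoters, 1 at a tRNA gene, 1 in a coding exon (of the collagen gene col-97) and 9 elsewhere. T26A8.4 and pdtf-1 shared the first promoter region (chromosome IV, 8431915 to 8432370), with 114.5 pooled, 56.8 in replicate 1 and 63.2 in replicate 2. Y55F3AR.2 and cct-8, a subunit of the chaperonin that folds actin and tubulin, shared the next (114.4, 57.2 and 53.4). The region at drap-1, whose human counterpart is a corepressor subunit that binds TBP, had 114.4, 58.0 and 60.4. All 3 ranked higher in replicate 2. The region of rpb-11, a subunit of RNA polymerase II, and W01G7.4 had 114.2 pooled, 61.2 and 53.3. The regions at trap-4 and cmk-1 ranked much higher in replicate 1. The region at trap-4, ccf-1 (the deadenylase of the CCR4-NOT complex) and Y56A3A.22 had 113.8 pooled, 81.9 in replicate 1 (rank 277) and 43.2 in replicate 2 (rank 1706). The region at cmk-1, a calcium and calmodulin dependent kinase, had 113.8, 77.9 and 48.5. Those at ost-1, the nematode osteonectin, and at prpf-4 and ekl-1 had 113.6 (51.6 and 45.9) and 112.9 (62.0 and 53.7). Of the 20, 10 ranked higher in replicate 1 and 10 in replicate 2.

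At the level of genes, 7662 protein-coding genes had any candidate summit in the promoter and 166 had a shared one, a background of 2.17%. IDR peaks lay in 310 of these promoters (4.05%), and 2 of the 166 genes had both (1.2%). The rule bars shared regions from overlapping an IDR peak, so it limits by itself how many genes can have both. Unshared regions lay in 507 (6.62%). The gene lists below were chosen with earlier results of these data known. Each count is set beside the background of 2.17% with no test, so nothing is read as particular to a list.

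Genes of the translation machinery held 9 shared promoters in 3 lists. Except at rps-4 and mrpl-50, each of these regions also lay in the promoter of another gene, so it cannot be credited to the translation gene alone. Cytoplasmic ribosomal protein genes had 4 of 60 (6.67%, 1.85 to 16.2%): rps-4 (104.4 pooled, 57.8 in replicate 1, 51.9 in replicate 2), rps-23 (99.7, 54.5 and 42.9), rps-12 (98.7, 48.1 and 46.8) and rpl-5 (85.7, 47.7 and 43.1). Another 11 of the 60 had an IDR peak. Mitochondrial ribosomal protein genes also had 4, of 45 (8.89%, 2.48 to 21.2%), at mrpl-50 (110.4 pooled), mrps-34 (106.2), mrps-10 (97.9) and mrpl-45 (83.9). Of these 45 genes 1 had an IDR peak, against 4.05% of all genes with a candidate summit in the promoter. The interval of the cytoplasmic list took in the background of 2.17%, and that of the mitochondrial list began at 2.48%. At mrps-10 the replicates were far apart, with 47.7 in replicate 1 (rank 1894) and 71.7 in replicate 2 (rank 284). The same region served the nuclear pore gene npp-25 (1 of 26 genes in the nuclear transport list). Translation factors had 1 of 22, at eif-3.D (102.4, 60.7 and 41.8), and the aminoacyl-tRNA synthetase genes 0 of 17.

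Collagen genes, which encode the building blocks of the cuticle, had 5 of 60 (8.33%, 2.76 to 18.4%) and no IDR peak. Over all genes with a candidate summit in the promoter, 4.05% had an IDR peak. The members were col-185 (111.8 pooled, in the region of the tRNA gene H06A10.t1), col-44 (109.9, with 71.5 in replicate 1 and 44.2 in replicate 2), col-63 (105, 48 and 51.2), sqt-3 (92, 63 and 54.2) and col-38, which shared its region with rpl-5. In 2 of the 5, therefore, the region was also that of a tRNA gene or of a ribosomal protein gene. At sqt-3 (chromosome V, 12353074 to 12353529) the summit lay 19 bp upstream of the start.

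The other lists had 2 or fewer genes each. The divergent heat shock genes hsp-16.2 and hsp-16.41 shared 1 region (88.5 pooled, 74.1 in replicate 1 and 44.9 in replicate 2), 2 of 11 genes in that list. The histone genes his-68 and his-67 shared 1 with the Argonaute gene alg-5 (113.7, 72.9 and 42.4), 2 of 24. The splicing factor genes rsp-1 and rsp-2 did so too (101.1, 60 and 42.4), 2 of 31. Each of these pairs is 1 region counted for 2 genes, and each ranked higher in replicate 1. The chromatin factor list had epc-1 (101.3) and jmjd-1.2 (86.2), 2 of 51, and the RNA polymerase list rpb-11 and ttb-1 (92.2), 2 of 32. Single genes were nhr-48 (107.4) of 90 nuclear hormone receptors, the even-skipped homologue vab-7 (95.5) of 43 homeobox genes, let-413 (83.4) of 17 adhesion and junction genes, the cell death gene wah-1 (109.2) of 10, and the Frizzled gene mig-1 (103.5, 67 and 64.7) of 18 Wnt and Notch genes. No shared promoter was found in 7 further lists: the Snail family and partners (0 of 2), basic helix-loop-helix factors (0 of 16), GATA, T-box and Forkhead factors (0 of 16), muscle structure (0 of 24), the proteasome (0 of 24), mitochondrial respiration (0 of 28) and synaptic transmission (0 of 15).

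Of the 7 genes looked up in every case, 1 held shared regions. The cadherin gene hmr-1, whose vertebrate relative E-cadherin is repressed by Snail, had 3 in its introns on chromosome I. The strongest (11097033 to 11097488, summit 11097261) had a signal of 100.7 pooled at rank 756, 62.6 in replicate 1 and 45.9 in replicate 2. Its summits in the replicates lay 337 bp apart, and its window held no CAGGTG. It was also the strongest of 40 candidate summits in that long gene. The second (11092135 to 11092590) had 97.7 pooled, 50.3 and 47.3. The third (11097262 to 11097717, 96.6 pooled) overlapped the first by 227 bp and met the same replicate regions, so the 3 made up 2 separate loci. Over the whole pooled list, 305 of 30000 regions were shared, and no test was run on hmr-1. The promoter of unc-119, mutated in this strain, had an unshared region at rank 1394 (86). The snai-1 promoter's best region ranked 4737 (63.5), and that of the hmr-1 promoter ranked 4181 (65.5) and was not shared. No candidate summit lay in the body or promoter of ces-1, a Snail family gene, or of egl-1, the cell death activator that CES-1 represses. The Snail family gene scrt-1 and hlh-2, which encodes a partner of helix-loop-helix proteins, had no candidate in the promoter and weak ones in the body, at ranks 22903 and 12759.

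Counted wherever they lay, promoters included, introns held 99 shared summits (32.5%, 27.2 to 38%). Distal intergenic sequence, taken as outside protein-coding genes, promoters and small RNA genes, held 61 (20%, 15.7 to 24.9%). Both intervals overlapped those of the unshared regions (36.9% and 22.6%). Coding exons held 30 (9.84%, 6.74 to 13.7%), against 10.7% of the unshared regions, 18.3% of those beyond rank 2000 (17.9 to 18.8%) and 2.83% of the IDR peaks. The intron and coding exon classes overlap the promoter class, since a summit can lie inside one gene and in front of another. Away from promoters and small RNA genes, 64 shared summits lay in introns and 15 in coding exons. The nearest IDR summit was a median of 45100 bp away, against 68700 bp for the unshared regions and 78400 bp beyond rank 2000. Within 1000 bp, where the rule bars overlap with an IDR peak, lay 3 shared regions (0.984%, 0.203 to 2.85%), against 1.12% of the unshared regions (0.596 to 1.9%) and 0.506% beyond rank 2000. They were at the tRNA genes Y65A5A.t2 and rtw-5 and in the promoter of Y75B8A.7, which were named after their distances were seen. Within 10000 bp the share was 24.3% (19.6 to 29.5%), against 18.5% of the unshared regions and 10.2% of those beyond rank 2000.

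Chromosome III held 96 of the shared regions (31.5%, 26.3 to 37%), against 26.9% of the unshared regions (24.4 to 29.6%) and 18.2% of those beyond rank 2000 (17.7 to 18.6%). The other chromosomes held 35 (V) to 50 (II). On chromosome III, 6 bins of 250 kb between 11750001 and 13500000, picked because each held 8 or more IDR peaks, held 54 shared regions (17.7%, 13.6 to 22.5%), from 2 to 16 per bin. No other bin of the genome had more than 5. These bins gave 4.55 shared regions per 100 candidates, against 0.871 elsewhere. The unshared regions had 12.6% (10.8 to 14.7%) of their number there and the IDR peaks 16.4%. The windows there differed from the rest in content: TTGCCG was in 16 of 54 (29.6%, 18 to 43.6%) and in 5.58% (3.08 to 9.18%) of the shared regions elsewhere. In the unshared regions TTGCCG was in 23.1% (16.6 to 30.8%) inside these bins and 9.65% elsewhere. At the IDR peaks the shares were 27.2% and 5.56%, and beyond rank 2000 they were 14.4% and 7.42%. The difference was thus not particular to the shared regions. The bins and the hexamer were both chosen after the data were seen. Without the regions of these bins, 16.7% of the shared regions lay on chromosome III, below the interval of the full set.

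The place of a region followed its rank in the whole pooled list, members or not. The share at tRNA genes fell from 26.1% of the IDR peaks to 7.93% at ranks 496 to 1000, 2.15% at ranks 1001 to 2000 and 0.241% at ranks 20001 to 30000. The promoter share went from 46.9% through 45.1% and 36.7% to 28.7%, while the coding exon share rose from 2.83% through 8.13% and 11.8% to 19.4%. The share with CAGGTG was 1.62% (0.7 to 3.16%), 2.03% (0.979 to 3.71%), 2.56% (1.66 to 3.76%) and 2.51% (2.21 to 2.83%) at the same steps. These intervals all overlapped, so an order cannot be judged from them. Since shared regions crowd toward rank 496, their shares and those of the unshared regions were also set side by side at ranks 496 to 1000 alone, a comparison added after the data were seen.

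**Figure D3:**
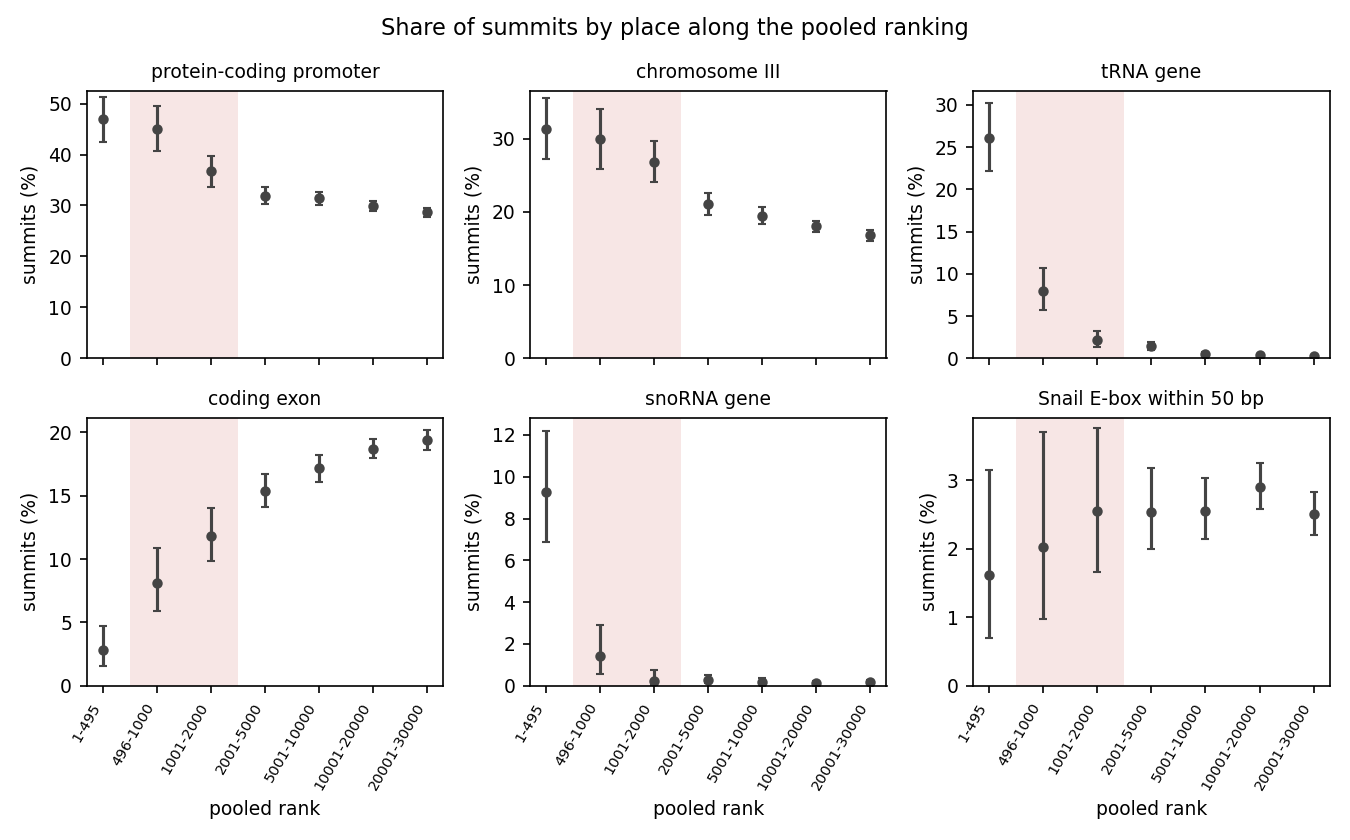
Share of region summits (y axes, %) with exact 95% intervals at each kind of place or with the Snail E-box within 50 bp, in steps of pooled rank (x axis), over all regions of each step that are IDR peaks or overlap none, with the ranks of the shared regions shaded. At tRNA genes the share falls from 26.1% at ranks 1 to 495 to 0.241% at the last step, and in coding exons it rises from 2.83% to 19.4%.

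At ranks 496 to 1000 the 229 shared and 263 unshared regions had overlapping intervals at each of the 10 places and features drawn below. The share at tRNA genes was 8.73% (5.42 to 13.2%) for the shared and 7.22% (4.41 to 11.1%) for the unshared regions. In promoters it was 47.6% (41 to 54.3%) and 43.0% (36.9 to 49.2%), in coding exons 7.42% (4.38 to 11.6%) and 8.75% (5.62 to 12.8%), and on chromosome III 31% (25.1 to 37.4%) and 28.9% (23.5 to 34.8%). Among these 10, the largest ratio was for promoters of 2 or more genes, 12.2% (8.28 to 17.2%) and 7.22% (4.41 to 11.1%). The median pooled signal in this rank range was 104.8 for the shared and 98.3 for the unshared regions, so ranks were matched only in part. Overlapping intervals do not show that the shares were equal. No test was run on these pairs, and none of the 10 was separated by its intervals at this number of regions. Of the places not drawn, summits outside protein-coding genes made up 56.3% (49.6 to 62.9%) of the shared and 47.5% (41.4 to 53.8%) of the unshared regions. On chromosome I the shares were 11.8% (7.92 to 16.7%) and 18.3% (13.8 to 23.5%).

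**Figure D4:**
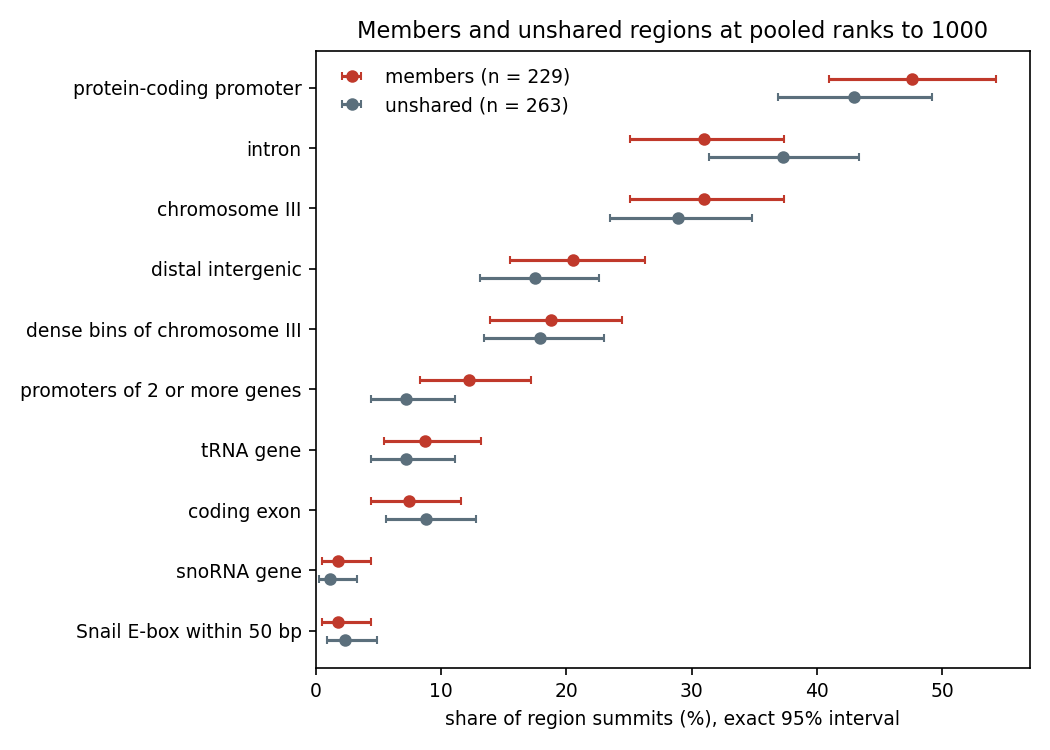
Share of region summits (x axis, %) at each place or with the Snail E-box within 50 bp (y axis), for shared regions (red, n = 229) and unshared regions (grey, n = 263) at pooled ranks 496 to 1000, with exact 95% intervals. The intervals of each pair overlap, for example 8.73% and 7.22% at tRNA genes.

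The Snail E-box was not more frequent at the summits. CAGGTG, on either strand, was in 4 of the 305 summit windows of 100 bp (1.31%, 0.358 to 3.32%) and in 1.97% of windows centred 400 bp to the right (exact McNemar test, two-sided, p = 0.754; Benjamini-Hochberg adjusted p = 1 over 10 E-box classes). The share was 1.64% in windows 400 bp to the left, 2.67% at unshared summits and 2.64% over all 30000 pooled windows. Besides the window at W10G11.t1, CAGGTG was at summits near the ncRNA gene F09F3.17, in C17F3.3 and on chromosome V at 10751 to 11206, with pooled signals of 107.5, 100.1 and 93.6, all named after they were seen. Of the 10 classes of CANNTG, 0 were called at an adjusted p under 0.05 (0% of classes), and 1 had an unadjusted p under 0.05: CAATTG, which was less frequent at the summit (2.62% against 6.23%, p = 0.0266, adjusted p = 0.266, exact McNemar test). CACTTG, which was at 7.68% of IDR summits (5.49 to 10.4%), was at 3.93% of shared summits (2.05 to 6.77%) and at 4.92% of their flanks.

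Over all 2080 hexamers, each merged with its reverse complement, 1 was more frequent at the summit than at the flank (0.0481% of hexamers) and 7 were less frequent (0.337%), with 138 and 144 at an unadjusted p under 0.05. The 1 higher hexamer was GAGCGC, at 5.90% of summits (3.53 to 9.17%) against 0.656% of right flanks (17 regions with it at the summit only and 1 at the flank only, exact McNemar test, adjusted p = 0.0438). Against left flanks, which held it in 3.61% of cases, the adjusted p was 0.769, so the call depended on which flank was used. Over the 12 alternatives tried its adjusted p ran from 0.000131 to 1. Of its 18 summits 9 were in promoters (6.82% of 132), where unshared regions had 7.04% and IDR peaks 8.11%. Another 5 were among the 22 at tRNA genes (22.7%, 7.82 to 45.4%), C11E4.t1 printed above included, where unshared regions had 2.63% (0.0666 to 13.8%) and IDR peaks 7.75%. Over all pooled windows the share was 2.63%. The 5 with the smallest p were ATATCA (1.31% of summits against 9.84% of flanks, adjusted p = 0.00299), AAAAAT (32.5% against 49.8%, adjusted p = 0.00299), AAATAT (11.5% against 24.3%, adjusted p = 0.0192), AAATTT (19.3% against 32.5%, adjusted p = 0.0408) and AAACTT (8.20% against 19.3%, adjusted p = 0.0438), all by the exact McNemar test. By the same exact test, AAAAAT alone of these 7 was also called against the left flank (adjusted p = 0.0134) and without the dense bins of chromosome III (adjusted p = 0.0274). GC content differed between these windows, with a mean of 44.2% (SD 10.4 over regions) at the summits, 36.1% at the right flank and 36.7% at the left. Among the 78 regions whose 2 windows differed by at most 5 percentage points in GC content, no hexamer was called in either direction. The mean GC content was 47.8% at IDR summits, 42.6% at unshared summits and 38.2% beyond rank 2000.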

How the data were processed

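The labels describe ChIP-seq of 2 biological replicates in 1 group. The authors deposited ranked region lists on ce11 for each replicate, for both pooled, and for the IDR peaks. Per the deposited manifests, each list was made from alignments of the replicates and a control, which was not analysed here. For the IDR threshold, the caller and the aligner, the sources used here give nothing. The deposited signal has no stated scale, and the deposited −log10 q-value chose no region. Each candidate list held 30000 regions, and all members were 456 bp wide, so widths were not compared.

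Regions were ranked by signal in Python 3.11.15 and placed on WBcel235 with Ensembl annotation (release 115) and RefSeq sequence. No region ended past its chromosome. Intervals and exact McNemar tests came from scipy 1.17.1, and the motif test was checked on windows with a planted hexamer. In that check each pair of windows was background sequence, so it did not cover the GC difference between summits and flanks. Apart from a control with none, the hexamer was planted at shares above that of CAGGTG. The members, the gene lists and the rule for named genes were chosen with earlier results of these data known. That rule named 7 genes in every case, the genes at the 20 strongest members, up to 5 members of each non-coding class and 4 of each of 23 gene lists by pooled signal, and the 5 hexamers of smallest p in each direction. The ce10 lists served only as an alternative count.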

Additional observations from a re-analysis of the deposited data

How the results depend on the processing

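Of 115 recomputed values, 78 kept their direction, their call or their place within the interval or within 1.5 times the count. Another 35 moved, and 2, for CAGGTG, reversed their direction. A CAGGTG share equal to that of its flank was counted as kept. The number of shared regions was 746 and 803 when only 1 replicate had to hold a strong overlapping region, 59 with replicate lists to rank 1000, 749 with lists to rank 4000 and 194 when summits had to lie within 100 bp. It was 310 on ce10. Genes with a shared promoter numbered 361 to 388 with 1 replicate and 32 with lists to rank 1000. The promoter share was 39.9 to 44.1% with 1 replicate, 31.8% for promoters from -500 to +100 and 60.3% for -2000 to +500. Within 2000 bp of an IDR summit lay 4.59%, and 16.7% were on chromosome III without the dense bins. CAGGTG was at 2.14 to 2.24% with 1 replicate, above the flank (1.88%) when replicate 1 was left out, and at 4.26% against 3.28% in windows of 200 bp, with no call in any setting.

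The share of all hexamers called, 0.0481% higher and 0.337% lower, moved most. With 1 replicate it was 5.1 to 6.92% higher and 4.62 to 5.72% lower. In windows of 200 bp it was 1.01% and 1.54%, against the left flank 0.0962% and 0.0962%, and in windows of 50 bp 0.0481% and 0.192%. With pooled ranks to 1000 and without the dense bins it was 0% and 0.0481%, away from small RNA genes 0% and 0.0962%, and with 1 member per group of overlapping members 0.0481% and 0.192%. It was 0% and 0% with lists to rank 1000, with summits within 100 bp and with like GC content. Fewer regions enter most of the settings with fewer calls, and the cause was not tested otherwise. The settings on the dense bins and on overlapping members were chosen after seeing the data. No paired analysis was possible because there is 1 group. Depth is unknown, so its limits could not be given.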

Other observations

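Values that belong to no comparison above concern repeated sequence. A window mostly of 24-mers found at more than 1 place of the genome surrounded 35 shared summits (11.5%, exact 95% interval 8.12 to 15.6%), against 7.48% of unshared summits (6.03 to 9.15%), 5.34% beyond rank 2000 (5.08 to 5.61%) and 20.6% of IDR summits (17.1 to 24.4%). Among promoter summits away from small RNA genes it was 12 of 132 shared (9.09%, 4.79 to 15.3%), 3.29% of unshared (1.81 to 5.45%) and 3.24% of IDR regions (1.20 to 6.93%). In the dense bins of chromosome III it was 8 of 54 shared (14.8%), 9.52% of unshared and 13.6% of IDR regions. The measure and its limit of 50% of a window's 24-mers were chosen after the data were seen, and the part of read assignment in these shares was not tested.

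In the same bins AAATTG, also chosen after the data were seen, stood in 48.1% of shared windows (34.3 to 62.2%) and in 16.3% (12 to 21.5%) of shared windows elsewhere. At IDR summits the shares were 35.8% and 11.8%, at unshared summits 39.5% and 20.4%, and beyond rank 2000 35.6% and 25.6%. The higher share in these bins was thus not particular to the shared regions.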
